A study of Mus musculus with 24 samples.

Results

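The sites described here are stretches of open chromatin that lie between genes but within reach of one: peaks on chromosomes 1 to 19 whose summit falls outside every gene body and 2 to 100 kb from the nearest annotated transcription start. Peaks of all libraries that overlapped were merged, and a merged site was kept where at least 2 libraries called it in their deposited lists. The rule gave 74544 of the 233647 sites found in all, or 31.9%, and left out 73957 intergenic regions called by 1 library. The rest of the sites were 105442 in gene bodies outside coding exons ("intronic"), 36611 within 2 kb of a start ("promoter-proximal"), 9841 in coding exons and 7209 outside genes beyond 100 kb from a start ("desert"). No measured change entered the choice.

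ATAC-seq, which uses a transposase to cut and tag accessible DNA, was run on 24 libraries of mouse E14 embryonic stem cells, with 12 groups of 2 libraries. All of the lines carried the CTCF AID allele, whose auxin-inducible degron lets the auxin IAA trigger destruction of the CTCF protein. In the overexpression control line the cells had no IAA or 12 h of IAA, and the oeCTCFwt and oeCTCFmut lines, which express an added wild-type or mutated CTCF, both had IAA. A Chd4 set and a Chd8 set, both without IAA, each held a luciferase hairpin (shluci) and the hairpins shRNA1 and shRNA2. A further set, labelled as grown in serum, held CTCF-AID cells with no IAA and with 12 h of IAA. The growth protocol names a serum-free medium with LIF, PD0325901 and CHIR99021 on gelatin for all samples, whereas the labels of 4 libraries say serum. The labels do not say which residues of CTCF were mutated, nor that the 2 libraries of a group came from separate cultures, so p-values measure the spread between these libraries only.

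Intergenic open sites at this distance include enhancers, which transcription factors bind to raise the activity of a gene further along the chromosome, and CTCF sites, where CTCF and the cohesin ring anchor chromatin loops and bound the reach of enhancers. Embryonic stem cells grown with LIF and inhibitors of MEK and GSK3 keep enhancers that are bound by OCT4, SOX2, ESRRB, KLF4 and STAT3. Chd4 is the motor of the NuRD complex, which moves nucleosomes and removes acetyl groups from histones, and Chd8 is a related remodeller known to bind CTCF and β-catenin.

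All lists together held 2958411 peaks, and single lists 59786 to 166697. Since a longer list reaches weaker peaks, lists were cut within each set of libraries to the shortest, by the authors' −log10 p: 120137 peaks for the control, oeCTCFwt and oeCTCFmut lines, 80619 for the Chd4 set, 135410 for the Chd8 set and 59786 for the serum set. Levels are therefore compared within a set. A site missing from a list lay below that list's limit, which does not show that its chromatin was closed. The number of reads behind each list is unknown. All 8 embryonic stem cell markers examined had a peak at a start in at least 6 libraries (Nanog, Esrrb and Tfcp2l1 in 24, Pou5f1 in 6). Of 6 fibroblast genes Col1a1, Postn and Lum had none, Col3a1 had one in 1 library, Thy1 in 18 and Col1a2 in 23. Peak lists do not measure the CTCF, Chd4 or Chd8 protein, so neither degradation nor knockdown was checked.

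The sequences that the CTCF results turn on are shown first. These are the 5 members, 1 in each band of distance, that carried the CTCF consensus, were present in all 4 lists without IAA of the control line and the serum set and absent from the 4 lists with IAA, and had the strongest peaks without IAA in their band. The consensus of 14 bases was searched on both strands within 250 bp of the summit with at most 1 mismatch, and 5.87% of all sites hold it. Capitals mark the match in the reference genome (GRCm38, the assembly also called mm10), forward strand.
Olfr650-ps1, chr7:104199965-104200028: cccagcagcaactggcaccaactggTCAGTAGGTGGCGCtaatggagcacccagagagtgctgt
Hnrnpa1l2-ps, chr13:74854526-74854589: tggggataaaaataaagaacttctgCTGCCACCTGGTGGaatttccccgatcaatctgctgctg
Slc46a2, chr4:59932892-59932955: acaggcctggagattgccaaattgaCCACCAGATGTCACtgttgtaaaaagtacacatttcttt
Nfkb1, chr3:135731507-135731570: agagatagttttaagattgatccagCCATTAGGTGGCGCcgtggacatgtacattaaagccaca
Htr1a, chr13:105377240-105377303: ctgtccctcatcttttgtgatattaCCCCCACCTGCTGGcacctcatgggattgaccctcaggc
The names are those of the nearest start, and the sites lay 3347, 9796, 17949, 39955 and 66312 bp upstream of it. The match reads on the forward strand in 3 of them and on the reverse strand in those near Hnrnpa1l2-ps and Htr1a. Only the match near Hnrnpa1l2-ps, in this set of 5, had no mismatch.

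The 3 sequences below carry words of 31 or more bases that many members share. The members near Slain1 and Gm6863 were the strongest of those called by all 4 Chd4 hairpin libraries and neither shluci library, and capitals mark the 31-base word by which members were matched, which is part of a longer stretch that both hold. The site near Slain1 is given on the reverse strand, and its word lies within 250 bp of the summit but outside the merged peak itself. The member near Gm13692 is an example of a copied sequence with the YY1 motif AAGATGGCG, in capitals, which 1.39% of all sites hold.
Slain1, chr14:103620321-103620375: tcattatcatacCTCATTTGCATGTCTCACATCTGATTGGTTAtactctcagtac
Gm6863, chr12:96849523-96849577: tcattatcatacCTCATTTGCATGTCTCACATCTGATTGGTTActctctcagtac
Gm13692, chr2:84087096-84087150: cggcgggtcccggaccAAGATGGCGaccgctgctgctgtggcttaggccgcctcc

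The members covered 36.06 Mb, with a median width of 387 bp. Their summits lay a median of 17285 bp from the nearest start, 43144 (57.9%) upstream of it and 31400 (42.1%) downstream. The nearest start belonged to a protein-coding gene for 25400 members (34.1%), to a processed pseudogene for 18612 (24.97%) and to a lincRNA for 13543 (18.2%), so that most members lay closer to a pseudogene or a non-coding RNA than to a coding gene. The 8280 protein-coding nearest genes had a median of 2 members each and at most 36. Density ran from 23.1 members per Mb on chromosome 19 to 33.3 on chromosome 13. Linking members with gaps of at most 10 kb gave 29751 groups, in which 13872 members (18.6%) stood alone and 28835 (38.7%) fell in 3705 groups of 5 or more. The group with the most members, chr12:86767970-86943686 beside Irf2bpl, Cipc and Lrrc74a, held 53. The next held 44 (chr6:100297523-100463344, beside Rybp, a subunit of Polycomb complexes), 37 (chr12:55432472-55560651, beside Nfkbia, the NF-κB inhibitor), 37 (chr2:17807118-17952384, beside H2al2a) and 35 (chr1:86430070-86542683, beside Ptma, prothymosin alpha).

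Few members were called by every library. After the lists were cut, 2169 members (2.91%) were called by all 24, against 4.39% of all sites, 14.4% of promoter-proximal, 2.96% of coding exon, 2.66% of desert and 2.20% of intronic sites. Most common was a call by 2 to 5 libraries (25487 members, 34.2%), and 3024 (4.06%) were called by none once lists were cut. Members called by all 24 were wider than those called by none, with a median of 1066 bp against 182 bp, and held the OCT4-SOX2 composite motif more often, at 2.17% against 0.628%. This motif of 15 bases, which pairs the sites of those 2 factors, was searched with at most 2 mismatches, and 0.744% of all sites hold it. Width and breadth share the same peaks, so these are descriptions with no test. By mean percentile of −log10 p, the 5 strongest members called by all 24 lay near Gm47322 (chr13:12176156-12177421), Gm20541 (chr17:37995452-37996304), BC002059 (chr17:17004646-17005677), Gm24932 (chr7:107339354-107340522) and Cnbd1 (chr4:19137623-19138508), with means of 98.7 to 98.9. A percentile here is the peak's rank by the authors' −log10 p within its cut list, and 0 stands for no call.

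Intergenic peaks held the CTCF consensus more often than peaks inside genes. Over the 24 libraries a mean of 7.01% ± 2.29 (SD, n = 24) of intergenic peaks held it, against 6.12% ± 2.29 of intronic and 3.69% ± 1.06 of desert peaks. The intergenic share was the higher in 23 of 24 libraries against intronic peaks and in 24 of 24 against desert peaks (permutation test of sign flips, two-sided, p = 2e-05 for both, the smallest that 100000 resamples can give; adjusted 6.5e-05). The library where it was not higher is the first of Chd4 shRNA1, with 5.71% intergenic against 5.88% intronic. Repeat-masked sequence took 25.3% ± 1.85 of the bases around intergenic summits, above 18.5% ± 1.15 around intronic ones in 24 of 24 libraries and below 35.0% ± 2.68 in deserts in 24 of 24 (same permutation test, p = 2e-05, adjusted 6.5e-05). The OCT4-SOX2 motif stood at 1.19% ± 0.168, against 1.04% ± 0.162 in intronic peaks (higher in 22 of 24; same p) and 1.499% ± 0.287 in deserts (higher in 2 of 24; same p). The gap to intronic peaks lost its call when lists were cut to 50% (0.0595 percentage points, permutation p = 0.13) or limited to −log10 q of at least 10 (0.0173, permutation p = 0.729). The gap to deserts lost its call under that limit too (-0.265, permutation p = 0.0412, adjusted 0.153). The libraries share sites of 1 genome, so these p-values describe lists rather than independent genomes.

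The features changed with distance from the start. From the nearest band (2 to 5 kb, 9411 members) to the farthest (50 to 100 kb, 11218 members) the share with the CTCF consensus was 7.37%, 6.84%, 7.46%, 5.98% and 4.74%. The YY1 motif went the other way, from 1.36% to 2.97%, and the OCT4-SOX2 motif was at 0.733% in the nearest band and 1.13% in the farthest. At the limits of the rule, the 474 members 2000 to 2100 bp from a start held the consensus in 8.23% of cases, and the 1280 outside sites 1900 to 2000 bp from a start in 6.72%. Those outside sites were taken by distance alone and may lie inside genes, so more than distance differs there. The 659 members at 95 to 100 kb held it in 4.25% and the 545 sites just past 100 kb in 3.85%.

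After degradation of CTCF, fewer intergenic peaks held the CTCF consensus in both media. In the control line, 8.12% and 8.15% of intergenic peaks held the consensus without IAA and 3.65% and 3.72% with IAA. In the serum set the shares were 13.2% and 12.6% without IAA and 4.47% and 4.56% with it. The groups did not overlap in either medium, and the spread within a pair of libraries was small beside the drop. Mean shares went from 8.14% ± 0.0207 to 3.68% ± 0.0464 (SD, n = 2 each) in serum-free medium and from 12.9% ± 0.430 to 4.51% ± 0.0609 (n = 2 each) in serum. With labels permuted within medium, the mean change was -6.41 percentage points (4 of 4 IAA libraries below both controls of their medium; exact permutation test, two-sided, p = 0.0556, adjusted 0.158 over 26 tests). That is the smallest p which 36 arrangements allow, so no result of this design can pass 0.05. Within 1 medium the smallest possible p is 0.333. Intronic peaks were lower as well: the difference between intergenic and intronic shares was 1.15 points without IAA and 1.02 with it, a change of -0.131 (exact permutation test, two-sided, p = 0.333).

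**Figure D1:**
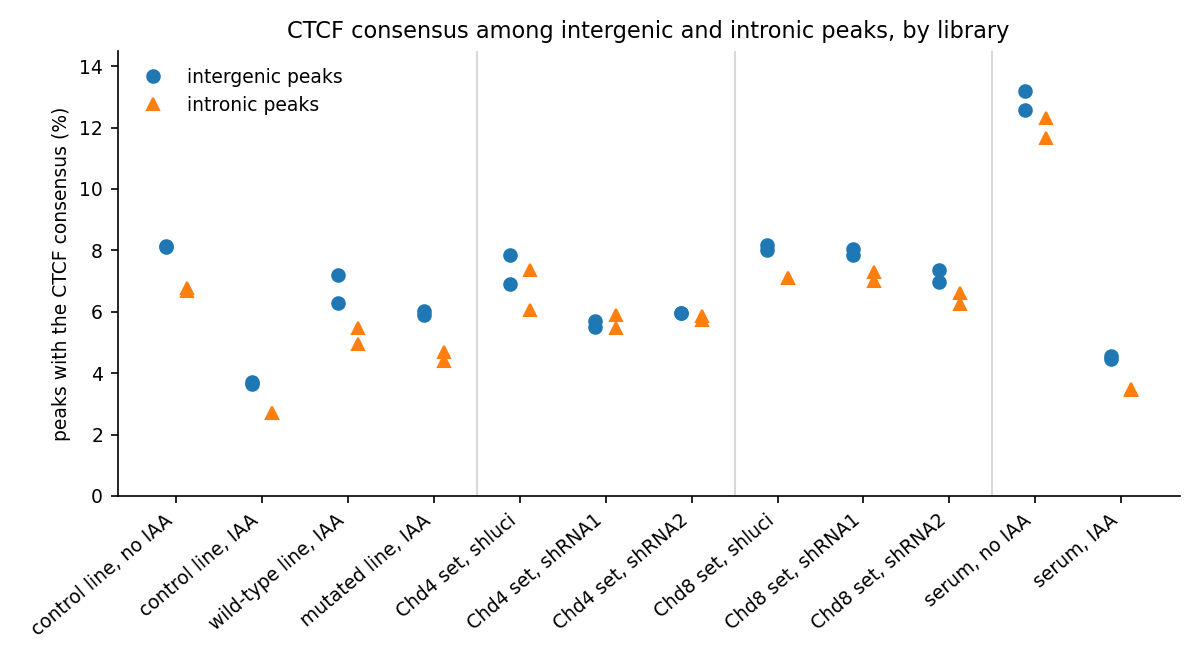
Percent of intergenic (circles) and intronic (triangles) peaks with the CTCF consensus in each library, 2 libraries per group, vertical lines between sets whose lists were cut to different lengths. The libraries with IAA of the control line (3.65% and 3.72%) and of the serum set (4.47% and 4.56%) lie below every other library.

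A member counted as lost when every reference library called it and no treated library did, and as gained in the reverse case. In serum-free medium 2492 of 28979 members that both controls called were lost with IAA, or 8.60%, against 7.36% of all sites of the series. Another 1592 of 35991 that neither control called were gained, or 4.42%, against 5.34% of all sites. In serum 1450 of 11441 were lost, or 12.7%, against 9.77%, and 1305 of 55227 were gained, or 2.36%, against 2.31%. Intronic sites were lost in 8.58% of cases in serum-free medium and 14.9% in serum, and promoter-proximal ones in 3.56% and 3.25%. Loss above that of all sites was thus not particular to intergenic members. With 2 libraries a side no single site can be tested, and the counts of losses shifted with list length (713 lost in serum when lists were cut to 50%).

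Loss went with the consensus. Among intergenic members in serum-free medium, 884 of 2317 with the consensus were lost (38.2%) and 1608 of 26662 without it (6.03%). In serum the counts were 693 of 1457 (47.6%) and 757 of 9984 (7.58%). Gain showed the opposite: 1.63% of members gained in serum-free medium held the consensus, against 4.87% of those able to be gained. Intronic sites with the consensus were lost in 43.3% of cases in serum-free medium and 54.2% in serum, and promoter-proximal ones in 17.9% and 17.2%. Whether these classes differ was not tested.

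The loss of consensus members had no steady order with distance from a start. In the 5 bands, from the nearest, 37.5%, 38.9%, 36.1%, 39.7% and 39.6% of consensus members were lost in serum-free medium, and 44.3%, 45.3%, 47.6%, 52.2% and 45.4% in serum. Members without the consensus stayed between 5.95% and 6.25% in serum-free medium. In serum they were at 8.60% in the nearest band and 5.52% in the farthest, and all members together at 13.3% and 9.23%.

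**Figure D2:**
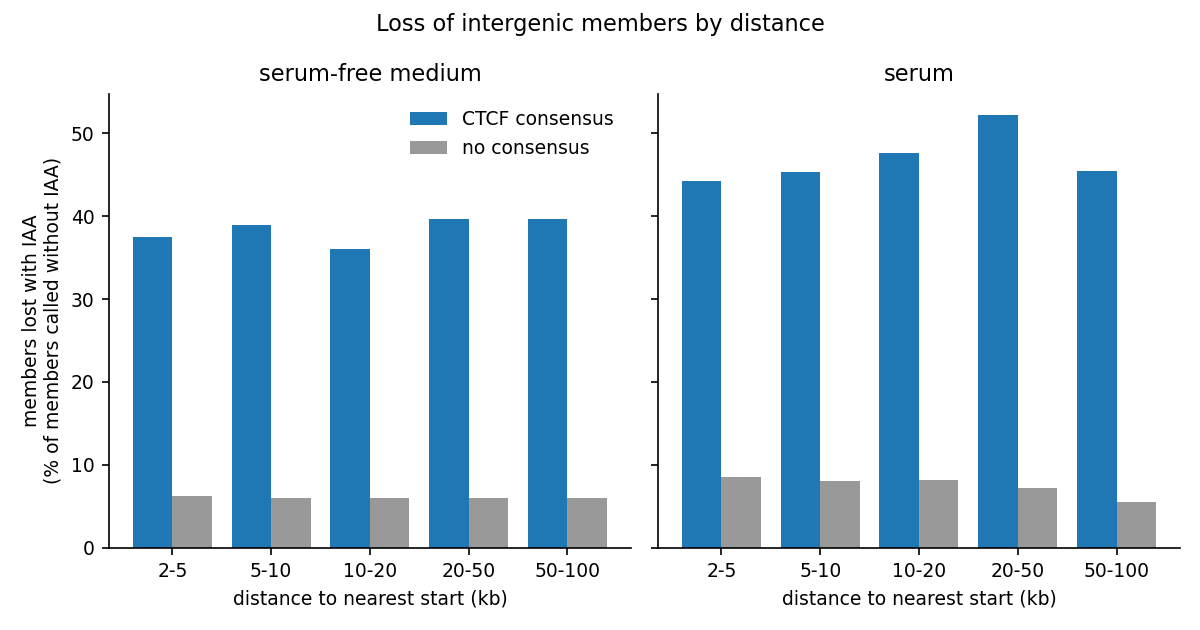
Percent of members lost with IAA, out of those called by both libraries without IAA, by distance to the nearest start in kb, for members with the CTCF consensus (blue) and without (grey). Blue bars lie between 36.1% and 52.2% and grey bars between 5.52% and 8.60% at every distance.

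The quality of the match and its place went with loss. Of members with a perfect match, 45.4% were lost in serum-free medium and 51.9% in serum, and of those with 1 mismatch 35.2% and 45.6%. A match within 50 bp of the summit went with loss of 46.0% and 51.7%, and one farther off with 35.0% and 46.1%. The strand of the motif relative to the nearest start made a small difference, with 39.3% and 46.9% lost where it read toward the start and 37.0% and 48.2% where it read away. The strongest members were lost least: consensus members in percentiles 75 to 100 without IAA were lost in 9.51% of cases in serum-free medium and 17.3% in serum, and those in percentiles 0 to 25 in 54.6% and 79.9%. Members without the consensus had the same order, from 15.9% in percentiles 0 to 25 to 0.576% in percentiles 75 to 100 in serum-free medium. A weak peak needs a smaller change to leave a list, so strength and list length move together with loss, and their part in it was not tested.

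The losses in the 2 media, which share no library, overlapped in 486 members, 19.5% of those lost in serum-free medium and 33.5% of those lost in serum. Most of the serum-free losses could not be lost in serum, since 652 of the 2492, and 1056 of the 1450 serum losses, were called by all 4 lists without IAA. Of these the overlap was 74.5% of the serum-free and 46.0% of the serum losses. Among consensus members it was 275, or 82.3% of 334 and 53.3% of 516, and among the rest 211, or 66.4% of 318 and 39.1% of 540. Of 1242 consensus members called by all 4 libraries without IAA, those 275 (22.1%) were missing from all 4 lists with IAA, against 211 of 8583 without the consensus (2.46%).

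The calls at these sites were then followed through the libraries that had no part in choosing them. Of the 275, the 2 oeCTCFwt libraries called 221 and 200 (80.4% and 72.7%) and the 2 oeCTCFmut libraries 177 and 167 (64.4% and 60.7%), all with IAA. The oeCTCFwt libraries lay above the oeCTCFmut libraries without overlap, whereas of all members they called 44.6% and 46.04%, and the oeCTCFmut libraries 45.4% and 46.1%. The same order held for the 211 members without the consensus, with 159 and 148 called in oeCTCFwt and 117 and 119 in oeCTCFmut. The Chd8 set, without IAA, called 180 to 216 of the 275, and the Chd4 set, whose lists are shorter, 98 to 142. The control line with IAA has no calls here by the choice of the sites, so no contrast with it is drawn.

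**Figure D3:**
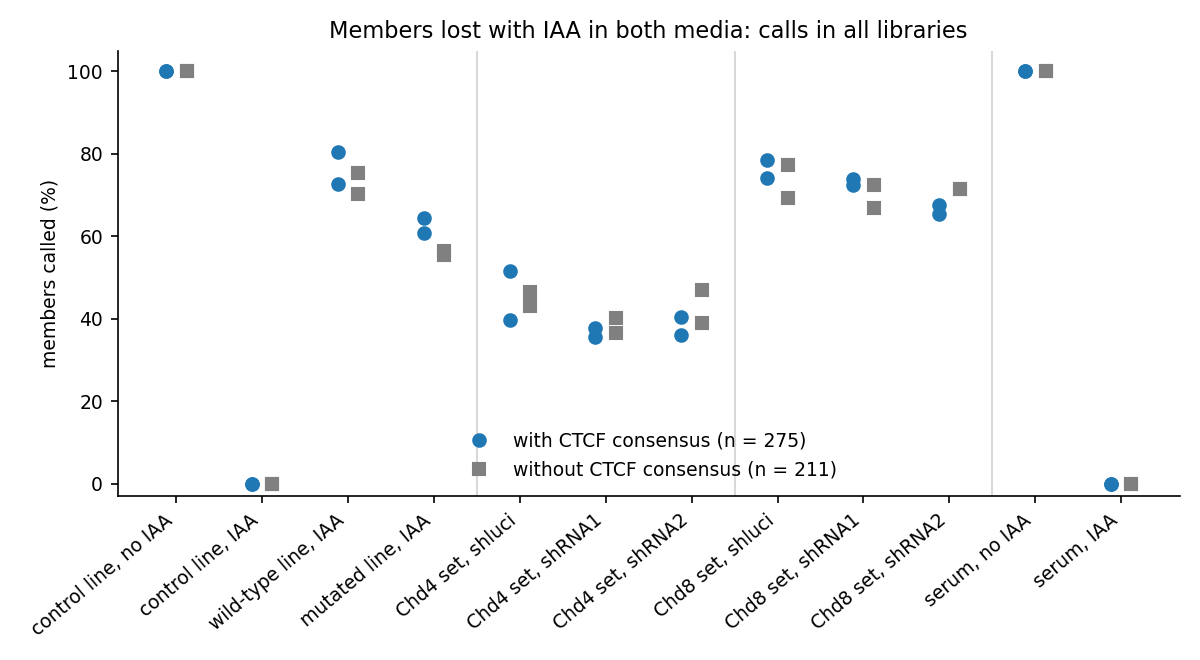
Percent of the 275 members with the CTCF consensus (circles) and the 211 without (squares) that each library called, 2 libraries per group. The 100% and 0% in the control line and serum groups follow from how the sites were chosen; the oeCTCFwt libraries call 80.4% and 72.7% of the 275 and the oeCTCFmut libraries 64.4% and 60.7%.

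The 5 members whose sequences are shown above differed in how far oeCTCFwt and oeCTCFmut lay apart, and 4 of them were called by all 4 of those libraries. Near Olfr650-ps1 (chr7:104199748-104200302), the member had percentiles of 87.7 and 87.6 without IAA in the control line, 80.5 and 82.9 in oeCTCFwt and 76.4 and 76.2 in oeCTCFmut. That near Slc46a2 (chr4:59932646-59933691), a solute carrier gene, had 87.2 and 84.8, then 73.1 and 76.7, then 74.8 and 69.2. The oeCTCFwt and oeCTCFmut values overlapped near Slc46a2 and did not near Olfr650-ps1. At Hnrnpa1l2-ps (chr13:74854229-74854757) the percentiles were 82.3 and 87.8 without IAA, 63.8 and 63.9 in oeCTCFwt and 26.2 and 43.6 in oeCTCFmut. At Nfkb1 (chr3:135731384-135731815), which encodes an NF-κB subunit, they were 87.1 and 85.6, then 75.7 and 67.7, then 71.6 and 62.5. The member near Htr1a (chr13:105377091-105377789), a serotonin receptor gene, had 73.7 and 51.6 without IAA, 18.6 and 49.1 in oeCTCFwt and was called by neither oeCTCFmut library. Of the 5 it is the one that shares a 31-base word with many others, 1565 members, and how its reads were placed among those copies was not tested.

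Over all intergenic peaks, the share with the consensus was higher in the lines with added CTCF than in the control line with IAA. The shares were 7.20% and 6.29% in oeCTCFwt and 6.01% and 5.89% in oeCTCFmut, against 3.65% and 3.72%. All 4 libraries lay above both controls and below the control line without IAA, and oeCTCFwt lay above oeCTCFmut without overlap. Means were 6.74% ± 0.643 and 5.95% ± 0.0860 (SD, n = 2 each), a difference of 0.793 points (exact permutation test, two-sided, p = 0.333, the smallest possible with 2 against 2). The 2 oeCTCFwt libraries lay farther apart than that difference. Both comparisons use the same control libraries. For oeCTCFwt, intergenic peaks gained 0.533 points more than intronic ones (p = 0.333, exact permutation test).

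Against the control line with IAA, oeCTCFwt gained 1781 of 35610 members (5.00%, against 5.12% of all sites) and lost 1310 of 27929 (4.69%, against 4.67%). The oeCTCFmut line gained 1561 of 35610 (4.38%, against 4.65%) and lost 1055 of 27929 (3.78%, against 3.72%). Counts near the background of all sites are no result about intergenic members as such. Within them the consensus set the gains apart: 521 of 3152 consensus members were gained in oeCTCFwt (16.5%) against 3.88% of the rest, and 368 of 3152 in oeCTCFmut (11.7%) against 3.68% of the rest. With oeCTCFmut as reference, oeCTCFwt lost 1066 of 28708 members (3.71%, against 3.63%) and gained 991 of 35053 (2.83%, against 3.00%), and 12.0% of these gained members held the consensus, against 6.80% of those able to be gained.

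More of the peaks were intergenic with the Chd4 hairpins, by 3.22 percentage points, while the other comparisons within a set differed in that share by at most 0.647 points. With peaks limited to −log10 q of at least 10, the Chd4 difference was 3.84 points and the largest of the others, that in serum, 2.41. In the shluci libraries 29.3% and 29.9% of autosomal peaks were intergenic, in shRNA1 32.6% and 31.9%, and in shRNA2 34.5% and 32.2%. Both hairpins lay above both controls. The means were 29.6% ± 0.416 (SD, n = 2) and 32.8% ± 1.17 (n = 4) (4 of 4 above; exact permutation test, two-sided, p = 0.0667, adjusted 0.158), the smallest p that 2 against 4 allows. The share of promoter-proximal peaks was lower, 30.96% ± 0.394 against 25.6% ± 2.44, and that of desert peaks higher, 2.55% ± 0.280 against 4.44% ± 0.552, each in 4 of 4 libraries (p = 0.0667, exact permutation test, adjusted 0.306 over 55 tests chosen after seeing the data).

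Within the intergenic peaks the shift was toward distance. The percent at least 50 kb from a start was 14.2 and 14.8 in shluci, 18.6 and 18.4 in shRNA1 and 20.2 and 18.2 in shRNA2, and again no hairpin library overlapped a control. The mean difference was 4.37 points (p = 0.0667, exact permutation test, adjusted 0.306). Repeat-masked sequence was at 24.4% and 25.5% in shluci, 30.4% and 29.9% in shRNA1 and 27.2% and 27.5% in shRNA2 (difference 3.82 points, 4 of 4 above; exact permutation test, p = 0.133, adjusted 0.431). In the Chd8 set the groups overlapped, with 12.8% and 13.8% of intergenic peaks beyond 50 kb in shluci and 12.9% to 14.0% in the 4 hairpin libraries (exact permutation test, two-sided, p = 0.6). The Chd8 means of the intergenic share were 29.2% ± 0.679 (n = 2) and 28.7% ± 0.578 (n = 4), a difference of -0.530 points (exact permutation test, two-sided, p = 0.4).

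**Figure D4:**
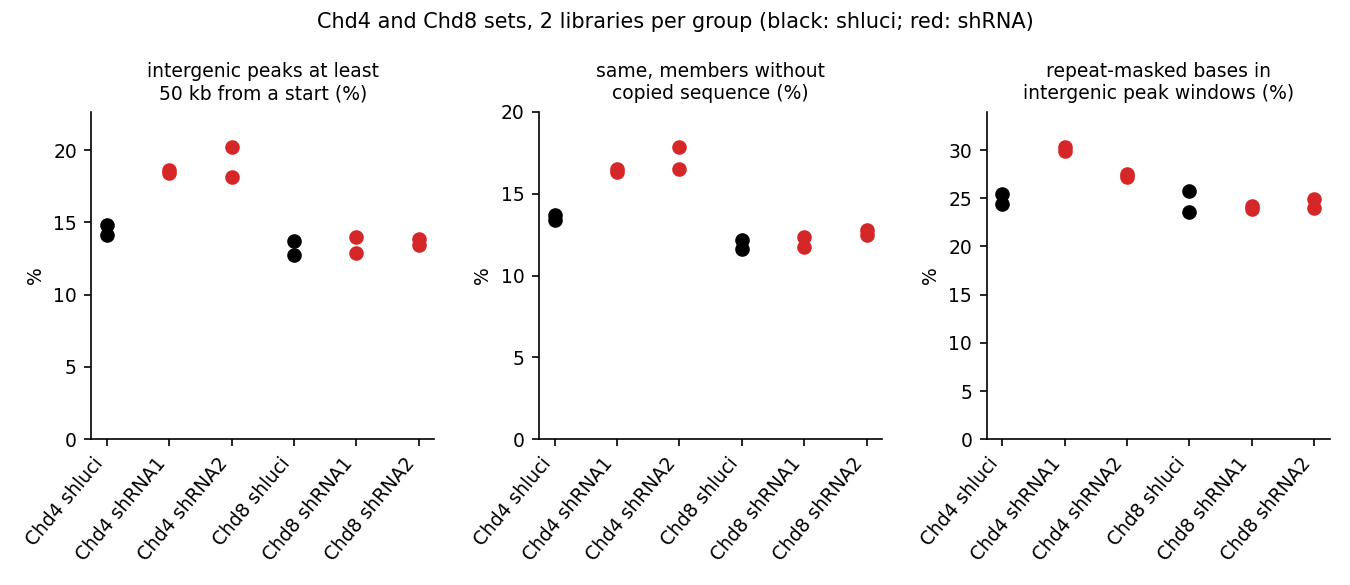
Chd4 and Chd8 sets, 2 libraries per group: percent of intergenic peaks at least 50 kb from a start, the same for members that share no word of 31 bases with 10 or more other members, and percent of repeat-masked bases around intergenic summits. The Chd4 hairpin libraries (red) lie above the Chd4 shluci libraries (black) in all 3 panels. The Chd8 hairpin libraries overlap those of Chd8 shluci in the first and last panels, and in the middle one 3 of 4 lie above both.

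With the Chd4 hairpins, 1565 of 12097 members called by both shluci libraries were called by none of the 4 hairpin libraries (12.9%, against 11.5% of all sites), and 1140 of 50991 were gained (2.24%, against 1.71%). Intronic sites were lost in 14.3% of cases and promoter-proximal ones in 7.15%, so loss above that of all sites was not particular to members. Gains were 1.24% of intronic and 4.04% of desert sites. Members near starts were lost more often and far ones gained more often. From the nearest band outward 16.0%, 14.8%, 13.7%, 11.6% and 8.95% were lost, while gains were 1.70%, 1.72%, 1.72%, 2.58% and 3.41%. The share lost was lower in each band farther out, and the share gained was higher in the 2 bands beyond 20 kb. Losses did not go with the CTCF consensus, with 12.6% of consensus members and 12.97% of the rest lost. The share of intergenic peaks with the consensus was 7.84% and 6.92% in shluci and 5.51% to 5.97% in the hairpin libraries (p = 0.0667, exact permutation test), but with peaks limited to −log10 q of at least 10 the difference turned from -1.59 to 0.998 points. With the Chd8 hairpins 712 of 17411 were lost (4.09%, against 3.41%) and 333 of 39303 gained (0.847%, against 0.879%). Losses there were 4.38% of intronic and 1.34% of promoter-proximal sites. The consensus share was 8.10% ± 0.108 (n = 2) in Chd8 shluci and 7.56% ± 0.486 (n = 4) with hairpins (exact permutation test, two-sided, p = 0.2). That difference of -0.541 points was -0.138 at deposited length and -0.224 at −log10 q of at least 10.

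The strongest members lost with the Chd4 hairpins lay near Fam43a and Gm42924. That near Fam43a (chr16:30641250-30642048, 41926 bp downstream) had percentiles of 98.0 and 96.9 in shluci, no call in the 4 hairpin libraries, and calls in the other 18. That near Gm42924 (chr6:68813087-68814003) had 97.6 and 94.0 and no call. The strongest gained, near Slain1 (chr14:103620048-103620304, 30084 bp upstream), was at 98.6 to 100 in the 4 hairpin libraries, absent from the 2 shluci lists and called elsewhere by the 2 Chd8 shluci libraries alone. That near Gm6863 (chr12:96849379-96849978, 73379 bp downstream) was at 99.0 to 99.6. Both of these gained sites sit in repeated sequence, with 50.9% and 92.0% of the window repeat-masked. With the Chd8 hairpins the strongest gained member near Plxdc2 (chr2:16344289-16345113) reached 65.7 to 90.04, and that near Sptssb (chr3:69818059-69818765) 66.9 to 89.0. All 18 libraries outside the Chd8 set called the Plxdc2 member, and both Chd8 shluci lists lack it.

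Copied sequence was common among the Chd4 gains, though not only there. A word of 31 bases shared with at least 10 other members was found in 17513 members (23.5%), whose windows were 57.1% repeat-masked. It was in 35.4% of Chd4 gains, 32.9% of members gained in serum against the control line and 28.8% of gains with IAA in serum. It was in 21.7% of gains with IAA in serum-free medium and 20.1% of Chd8 gains. In gains of the oeCTCFwt and oeCTCFmut comparisons it was in 17.7% to 19.7%. Members with such a word were gained with the Chd4 hairpins in 403 of 12185 cases (3.31%), the other members in 737 of 38806 (1.90%), and all sites in 1.71%. Members whose window was over 50% repeat-masked were gained in 339 of 9930 cases (3.41%), and the rest in 801 of 41061 (1.95%). Without the copied members the percent beyond 50 kb was 13.4 and 13.7 in shluci and 16.3 to 17.9 in the hairpin libraries, so the groups remained apart. Gains without them were 1.43%, 1.42%, 1.53%, 2.18% and 2.92% from the nearest band to the farthest. How reads that map to several places were handled is not given in the sources used here, and its part in the calls at copied members was not tested.

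The 31-base word printed for Slain1 and Gm6863 was held by 312 members, 74.7% repeat-masked and none with the CTCF consensus. In the Chd4 set, shluci called 12.5% and 10.3% of them, shRNA1 70.8% and 66.3%, and shRNA2 60.3% and 55.1%. The lines with control or added CTCF called 6.73% to 12.8%, the Chd8 set 14.1% to 26.0% and the serum set 2.24% to 3.85%. Among all members the Chd4 set ranged only from 23.5% to 25.5%. The word was chosen because the 2 strongest gained members hold it. Without those 2 the hairpin libraries called 70.6%, 66.1%, 60% and 54.8% of 310. A copy of the word is a member only where at least 2 libraries called it. Copies called by the hairpin libraries alone can thus enter the set, while uncalled copies are left out. Leaving out 2 members does not undo this, so the shares are no separate support. Of 258 able to be gained, 66 were (25.6%). These are descriptions of a set chosen after its values were seen, and no test is given.

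**Figure D5:**
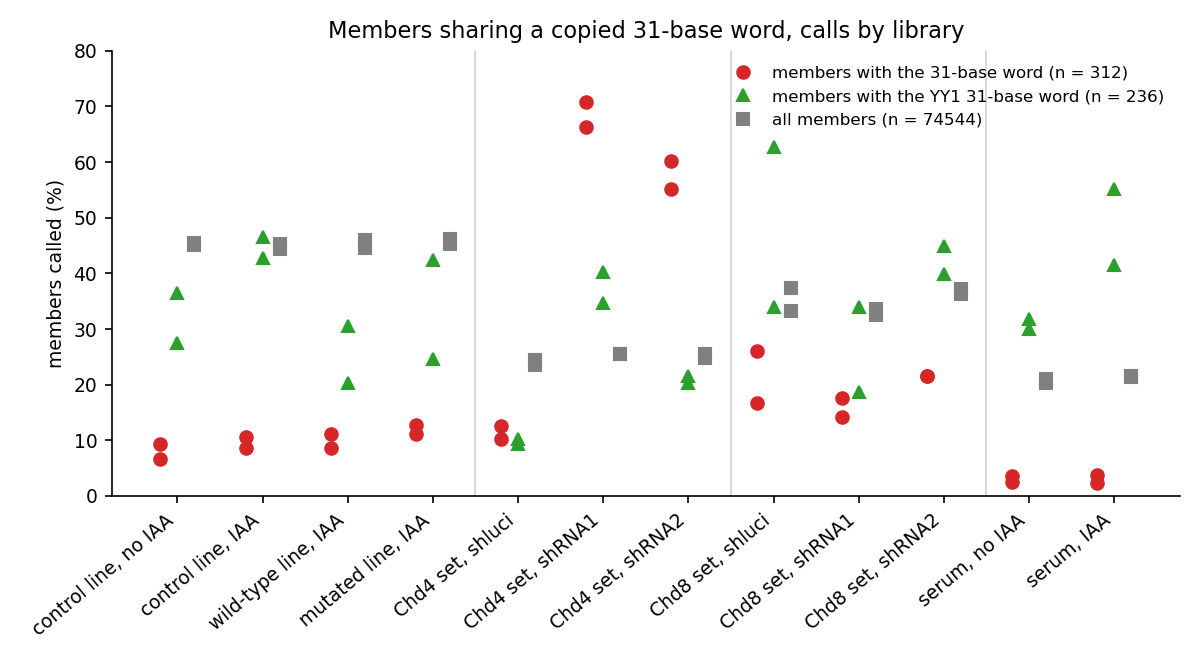
Percent of members called by each library, for the 312 members with the 31-base word of the strongest Chd4 gains (circles), the 236 members with the copied YY1 word (triangles) and all 74544 members (squares). The circles lie at 55.1% to 70.8% in the Chd4 hairpin libraries and at or below 26.0% in all others. Copies called by fewer than 2 libraries are not members and are left out.

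The YY1 motif was itself mostly copied sequence, since 82.6% of the 1419 members that hold it were copied. In the sequence printed for Gm13692 the capitals mark this motif only. The 31-base word of that member, which is not marked there, was held by 236 members, 80.7% of their bases repeat-masked. Calls at them were 10.2% and 9.32% in Chd4 shluci, 40.3% and 34.7% in shRNA1 and 21.6% and 20.3% in shRNA2. The 2 Chd8 shluci libraries called 33.9% and 62.7%, so replicates of 1 group lay as far apart as any groups of that set. In serum the calls were 31.8% and 30.1% without IAA and 55.1% and 41.5% with it, while of all members these libraries called 20.95% and 20.3% without and 21.3% and 21.5% with it. In serum-free medium the control line called 36.4% and 27.5% of the 236 without IAA and 46.6% and 42.8% with it, and the oeCTCFwt and oeCTCFmut libraries 20.3% to 42.4%.

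The genes listed for the naive state, the earliest form of pluripotency, include Pou5f1, Sox2 and Sall4, which are not particular to that state. This list had 102 members nearest to 12 of its 15 genes, 27 of them at Zfp42 and none at Sox2, Tbx3 or Tet2. Chd4 shluci called 34.3% and 37.3% of these, shRNA1 27.5% and 25.5%, and shRNA2 20.6% and 21.6%, without overlap. Of all members shluci called 23.5% and 24.3% and the hairpin libraries 24.9% to 25.5%. With the Chd4 hairpins 7 of 29 were lost (24.1%, against 11.5% of all sites and 12.9% of all members) and none of 58 gained (1.71% of all sites). Those lost lay at Pou5f1 (2 members), Klf2 (2), Klf4, Zfp42 and Sall4 (1 each). After CTCF degradation in serum-free medium 3 of 53 were lost (5.66%, against 7.36% of all sites) and 4 of 38 gained (10.5%, against 5.34%). In serum 4 of 24 were lost (16.7%, against 9.77%) and 2 of 64 gained (3.13%, against 2.31%).

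Single members show the range. The strongest at Pou5f1 (chr17:35503643-35506022, 2245 bp upstream), the gene of OCT4, was at 87.3 and 90.5 in the control line without IAA. In the Chd4 set it was at 83.5 and 89.8 in shluci, 21.7 and 0 in shRNA1 and 0 and 51.9 in shRNA2. At Tfcp2l1, a factor that holds cells in the naive state, the values were 93.1 and 95.5, then 12.1 and 58.9, then 0 and 60.9. At Zfp42, which encodes the marker REX1, they were 94.8 and 98.8, then 93.9 and 71.9, then 71.9 and 27.8. Prdm14, a repressor of differentiation, differed: its strongest member was at 78.7 and 79.4 in shluci and at 93.0 to 98.6 in the hairpin libraries. The sequences of the last 2 are printed to show members with opposite orders, with the KLF motif GGGNGTGGC (6.59% of all sites) and the TEAD motif ACATTCC (8.51%) in capitals.
Zfp42, chr8:43320798-43320856: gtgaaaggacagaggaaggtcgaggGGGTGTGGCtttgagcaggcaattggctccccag
Prdm14, chr1:13103719-13103770: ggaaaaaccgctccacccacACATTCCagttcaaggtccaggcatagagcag

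Genes that respond to LIF, BMP, WNT and MEK signals had 50 members. Chd4 shluci called 26% and 36% of them and the 4 hairpin libraries 14% to 18%, and 5 of 11 were lost (45.5%, against 11.5% of all sites and 12.9% of all members), at Id2, Id3, Socs3, Myc and Axin2. The strongest member at Id3, a BMP target, was at 73.0 and 68.7 in shluci and in no hairpin list, and that at Myc at 55.2 and 56.4 and in no hairpin list. At Socs3, a LIF target, it was at 34.9 and 68.9, then 0 and 2.26, then 0 and 0. The strongest members at Id2, Socs3 and Axin2 were not the lost ones, that at Socs3 because of a single weak call. That at Id2, a BMP target, was called by all 4 hairpin libraries, and that at Axin2, a WNT target, was missing in shluci and at 58.3 and 62.3 in shRNA2. Genes of the primed state and Nodal signalling had 16 members, of which Chd4 shluci called 43.8% and 56.3% and the hairpin libraries 37.5%, 25%, 18.8% and 25%. All 4 hairpin libraries lay below both controls, unlike the shares over all members (23.5% and 24.3%, then 24.9% to 25.5%), while none of 7 members was called by both shluci libraries and missing from all 4 hairpin lists. In serum-free medium 3 of 10 were lost after CTCF degradation (30%, against 7.36% of all sites), 1 each at Lefty1, Lefty2 and Zic2. In serum 1 of 7 was lost (14.3%, against 9.77% of all sites). Of the signal-response members 3 of 27 were lost in serum-free medium (11.1%) and none of 14 in serum. Regulators of later lineages had 32 members, of which shluci called 18.8% and 15.6% and the hairpin libraries 21.9% to 37.5%, with none lost of 3 and none gained of 24. Members with the OCT4-SOX2 motif, 676 in all, were called at 38.9% and 38.2% in shluci and at 36.5% to 38.02% with hairpins, beside 23.5% and 24.3%, then 24.9% to 25.5%, of all members. The nearest libraries of the 2 sides, at 258 and 257 of the 676, were 1 member apart. These counts are small, and the lists were chosen with earlier results of these data known.

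The serum set and the control line differed in medium, in line and in the set of libraries, and these cannot be told apart. At a common list length of 59786 peaks, 3.32% of intergenic peaks in the control line and 1.86% in serum held the ESRRB motif TCAAGGTCA (2.56% of all sites), with 3.17% to 3.52% against 1.77% to 2.04% over 4 libraries each. The TCF motif ATCAAAG (8.32% of all sites) stood at 9.65% to 10.9% against 7.53% to 8.21%. ESRRB is a naive-state factor, and TCF3, which binds the TCF motif, is known to lose its hold on target genes when GSK3 is inhibited. The KLF motif was lower in serum as well, 8.20% to 9.07% against 6.74% to 7.76%, and so was TEAD, 10.6% to 10.7% against 8.66% to 10.1%. The YY1 motif was higher, 0.713% to 0.933% against 1.88% to 2.78%. None of these ranges overlapped (exact permutation within IAA status, two-sided, p = 0.0556, the smallest possible, adjusted 0.0726 over 17 tests chosen after seeing the data). The intergenic share itself was 28.0% against 27.9% (p = 0.778, exact permutation test).

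Of 11963 members that all 4 control-line libraries called, 2801 were in no serum library (23.4%, against 19.0% of all sites), and 1500 of 53094 showed the reverse (2.83%, against 2.73%). Of intronic sites that all 4 called, 28.2% were in no serum library, and of promoter-proximal ones 5.61%. The ESRRB motif was in 5.03% of the 2801 members and 0.533% of the 1500, and the TCF motif in 13.5% and 6.40%. The strongest member seen in the control line alone of these 2 sets lay near Nhlh1 (chr1:172061272-172062643), a neuronal transcription factor gene, at 98.7 to 99.4 in the 8 libraries of the 3 lines and in none of the 4 serum lists. The strongest serum member lay near Adamts18 (chr8:113883850-113884391), at 96.8 to 99.0 in serum and in none of the other 20 lists.

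With IAA, intergenic peaks also shifted in features other than CTCF. Over both media the share with the ESRRB motif was 0.191 points higher with IAA, that with the YY1 motif 0.372 points higher, repeat-masked sequence 1.497 points higher and the percent beyond 50 kb 0.737 points higher. Each of these was higher in 4 of 4 IAA libraries than in the controls of the same medium (exact permutation test, two-sided, p = 0.0556, adjusted 0.306 over the same 55 tests). The serum set carried most of 3 of these. Repeat-masked sequence was 0.465 points higher in serum-free medium and 2.53 points higher in serum, the percent beyond 50 kb 0.142 and 1.33 points higher, and the YY1 share 0.155 and 0.589 points higher. Mean TCF shares, not among those tests, went from 9.37% to 10.2% in serum-free medium and from 7.60% to 8.04% in serum. The AP-1 motif TGANTCA went from 17.4% to 17.5% and from 16.6% to 17.6%. Both were higher in 4 of 4 IAA libraries. The SRF motif CCWWWWWWGG was lower in 4 of 4, from 2.56% to 2.50% and from 2.76% to 2.64%. These are shares of lists of fixed length, in which other peaks take the places of those that left. The intergenic share of all peaks without and with IAA was 30.0% ± 0.0332 and 29.7% ± 0.0642 in serum-free medium, and 27.5% ± 0.358 and 28.2% ± 0.0535 in serum (SD, n = 2 each), a mean difference of 0.188 points (exact permutation test, two-sided, p = 0.444). With peaks limited to −log10 q of at least 10 the difference was 2.41 points in serum and 0.969 over both media.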

How the data were processed

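ATAC-seq peak lists of 24 libraries were used as the authors deposited them. The submitters' processing notes name Trim Galore, Bowtie2, MACS2, deepTools and mm10, with no versions or roles; handling of reads that map to several places is not given in the sources used here. Each deposited line gives the authors' peak score, a fold enrichment (a ratio), −log10 p and −log10 q, and the summit's offset, an integer of another kind. Peaks were listed per library. These values ranked or filtered peaks within a list and were not averaged between libraries. Depth per library is unknown, which leaves the precision of single calls unknown.

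Summits on autosomes (97.6% of peaks) were placed by GENCODE vM21 basic gene bodies and starts, and sequence came from GRCm38. Lists were cut within each set to the shortest by −log10 p. A library called a site when a peak of its cut list overlapped it. Windows of 501 bases around the summit of the strongest peak were searched for motifs. Shares per library were compared with exact permutation tests of library labels, or sign flips with 100000 resamples for 24 paired values, and adjusted by Benjamini-Hochberg over 26 planned, 55 added and 17 medium tests. Tests were tried on simulated data with known answers. Python 3.11, numpy 2.4.6, pandas 2.3.3 and scipy 1.17.1 were used.

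Sites named are the strongest by mean percentile of −log10 p under fixed classes (CTCF-consensus members lost in both media by distance band, members nearest to listed genes, members changed in the Chd sets, called by all 24 libraries or in 1 medium only) and the groups with the most members. Alternatives were list length, −log10 q, distance limit, motif window and mismatches, overlap, number of libraries, single libraries left out and a replicate block. The members, lists and rules were chosen with earlier results of these data known. Replicates shared at most 0.223% of exact intervals, so none was a copy. Some of the named sites are not reported here.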

Additional observations from a re-analysis of the deposited data

Results flagged for a closer look

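The intergenic share of all peaks changed in opposite directions with IAA in the 2 media, by -0.272 percentage points in serum-free medium (30.0% and 29.9% without IAA, 29.6% and 29.7% with it) and by 0.647 points in serum (27.8% and 27.3% without, 28.2% and 28.2% with). Both IAA libraries of each medium lay on the same side of their controls. The difference between the media was not tested. In serum-free medium the sign turned when lists were cut to 50% of the shortest. In serum the difference was 2.41 points with peaks limited to −log10 q of at least 10.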

How the results depend on the processing

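Of 563 values under other settings, 493 kept their direction and call, 65 moved, 3 lost their call and 2 reversed. The reversals were the intergenic share in serum-free medium with lists cut to 50% (0.032 points) and the CTCF-consensus share in the Chd4 set at −log10 q of at least 10 (0.998 points). The OCT4-SOX2 gap between intergenic and intronic peaks was 0.0595 with lists cut to 50% and 0.0173 at −log10 q of at least 10, and that to deserts was -0.265 at the latter. With lists cut to 50%, lost and gained members numbered 1426 and 969 in serum-free medium, 713 and 619 in serum, 637 and 956 for oeCTCFwt, and 535 and 792 for oeCTCFmut; 370 were lost in the Chd8 set. At −log10 q of at least 10, 563 were gained in serum-free medium, 287 lost in serum, 264 lost for oeCTCFwt, 240 lost for oeCTCFmut, 113 gained in the Chd4 set, and 128 lost and 52 gained in the Chd8 set. At deposited length, 2247 were gained in serum, 766 lost and 2790 gained for oeCTCFwt, and 2349 gained for oeCTCFmut. Requiring peaks to cover 50% of a site gave 863 lost in serum, 587 lost and 206 gained in the Chd4 set, and 170 lost and 32 gained in the Chd8 set. With the motif counted within 50 bp of the summit, the consensus share differed by -0.218 points in the Chd4 set and -0.0333 in the Chd8 set. A shorter list or a stricter call leaves fewer members that all reference libraries call, and so fewer able to be lost. It leaves more members able to be gained but fewer that all treated libraries call.

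Leaving out 1 library at a time raises the counts, since fewer libraries have to call or miss a site. Losses then ran from 3715 to 4522 and gains from 2781 to 4676 in serum-free medium, 2062 to 3276 and 2205 to 3385 in serum, 2376 to 4187 and 2951 to 4132 for oeCTCFwt, 2281 to 3602 and 2946 to 3996 for oeCTCFmut, 1954 to 4013 and 1549 to 1719 in the Chd4 set, and 943 to 3734 and 535 to 1484 in the Chd8 set. The differences in shares kept their sign, but several moved by over 1.5 times. The Chd8 intergenic share (-0.530) became -1.01 without shluci replicate 1, -0.0497 without shluci replicate 2 and -0.301 without shRNA1 replicate 1, and the Chd8 consensus share (-0.541) became -0.347 without shRNA2 replicate 2. Without serum replicate 1 or 2 with no IAA, the intergenic share over both media (0.188) became 0.314 or 0.0612, and without the latter that in serum (0.647) became 0.394. The consensus share of oeCTCFwt over oeCTCFmut (0.793) became 0.338 without oeCTCFwt replicate 1 and 1.25 without replicate 2, and the gap between intergenic and intronic gains in oeCTCFwt (0.533) became 0.338 without its replicate 1.

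The labels give same-numbered libraries of different groups nothing in common but the number. The correlation of their deviations ranged from -0.103 to 0.152 for the lines, from 0.00479 to 0.0168 for Chd4 and from -0.0451 to 0.00701 for Chd8, and was -0.00397 for serum. Among the lines it was 0.152 for oeCTCFwt with oeCTCFmut. The control line with IAA had -0.102 with oeCTCFwt and -0.103 with oeCTCFmut. What lies behind these values was not tested. With the replicate number as a block the differences stayed as they were, 3.22 points for the intergenic share in the Chd4 set and -6.41 for the CTCF-consensus share over both media, and the smallest possible p was 0.5 for 2 against 2 and 0.111 for 2 against 4, so that no call was possible with or without the block. The crossed pairing of the control line with oeCTCFwt and oeCTCFmut, added after seeing the data, gave p = 0.5 (exact permutation) and 0 calls, as did the labelled pairing.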
